A study of Mus musculus with 3 samples.

Results

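The Hox genes of the mouse were examined for Ser5-phosphorylated Pol_II in macrophages. All protein-coding genes of the GENCODE M1 annotation (assembly mm9) whose symbol is Hoxa, Hoxb, Hoxc or Hoxd followed by a number were taken, which gave 39 genes of 22202 protein-coding genes on chromosomes 1 to 19 and X. Of these, 38 are described, and every count of members is over these 38. They lie in 4 clusters, with 10 described genes in Hoxa on chromosome 6, 10 in Hoxb on chromosome 11, 9 in Hoxc on chromosome 15 and 9 in Hoxd on chromosome 2. The question was which clusters and promoters carried Ser5, and whether the signal stayed at the start or reached into the gene.

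The libraries came from macrophages that had been grown from the bone marrow of female Fvb/Hsd mice (Fvb in the labels) and were at day 7 of differentiation. For untreated cells there was 1 ChIP-Seq library (chromatin immunoprecipitation followed by sequencing) made with an antibody against Ser5 (ab5131), a further library came from cells that had received 10 ng/ml of LPS (lipopolysaccharide, a component of the bacterial outer membrane) for 2 h, and the third was input DNA of untreated cells, without antibody. There was 1 library per condition, so no spread between replicates could be estimated, no test was made, and every interval given is a 95% interval for counting error only. The labels used here do not say how many animals or cultures gave a library. The untreated, LPS and input libraries held 7616771, 6249819 and 7533308 tags on the chromosomes used, with tag lengths of 45, 30 and 36 bases. The methods give the lengths of the untreated and LPS libraries the other way round, and the labels of the files were kept. The labels and the methods for Ser5 name LPS alone, but other Pol_II libraries of the study came from cells given LPS with interferon gamma and 1 figure names both agents beside its Ser5 tracks, so the sources do not settle whether interferon gamma was present.

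Hox genes encode homeodomain transcription factors that set positional identity along the body axis of the embryo. Within a cluster they are ordered by paralog group, the low numbers being the genes used anteriorly and the high numbers those used posteriorly, and in cells where they are silent they are textbook targets of Polycomb repressor complexes. Ser5 of the carboxy-terminal repeat of Pol_II is phosphorylated around initiation, so the mark is usually densest near the start of a transcribed gene and thins out along its body. It does not by itself measure elongation.

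The sequence below shows the promoter of Hoxa4, the described member with the most Ser5 at its GENCODE start. It runs 5′ to 3′ on the strand of the gene from 270 bases before to 30 bases after the GENCODE start (chr6:52141723-52142022, minus strand), read from mm9, with every CG dinucleotide in capitals.
Hoxa4: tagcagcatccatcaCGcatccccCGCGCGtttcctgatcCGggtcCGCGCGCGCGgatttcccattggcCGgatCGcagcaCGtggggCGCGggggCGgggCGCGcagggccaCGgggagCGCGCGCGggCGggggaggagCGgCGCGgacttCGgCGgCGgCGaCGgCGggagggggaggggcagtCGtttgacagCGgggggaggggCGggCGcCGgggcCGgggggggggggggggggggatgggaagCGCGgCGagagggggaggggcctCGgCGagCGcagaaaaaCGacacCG
The stretch held 47 CG dinucleotides. Most of the Ser5 tags of Hoxa4 lay on this upstream side of the start, as given below.

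Tags were counted by their 5′ ends in the promoter window, 1 kb on each side of the start of a representative transcript, and in the gene body, from 1 kb after the start to the end of the transcript. Ser5 was expressed over input after each library was scaled to its tags outside the deposited peaks of both lists. These were 3800581, 2896619 and 7190652 tags for the untreated, LPS and input libraries, because 50.1% of the untreated and 53.7% of the LPS tags, but 4.55% of the input tags, fell in peaks. Both Ser5 libraries were set against the same input. A window was called enriched when this ratio was at least 2 and the lower limit of its interval was above 1. Scaling to all tags instead lowers every ratio to input by 0.94 (untreated) or 1.04 (LPS) on the log2 scale and every ratio of LPS to untreated by 0.11. At the median of 7 input tags per Hox promoter, 11 untreated or 9 LPS tags were the fewest that could be called, so a weaker signal was not detectable at this depth.

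Most Hox promoters carried no Ser5 above input. Of the 38 members, 3 were called in untreated cells (Hoxa3, Hoxa4 and Hoxb4), against 50.2% of all coding genes. After LPS 1 was called (Hoxa4), against 49% of all coding genes. The median Hox promoter held 2 untreated, 2 LPS and 7 input tags, where the median coding gene held 12, 9 and 10. The ratio to input had a median of 0.447 in untreated cells and 0.827 after LPS over the Hox promoters, and of 3.15 and 2.86 over all coding genes. In the untreated library 6 Hox promoters had 0 tags and in the LPS library 5, and Hoxb9, Hoxc4 and Hoxc8 had 0 in both. The input had at least 1 tag in every Hox window.

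**Figure D1:**
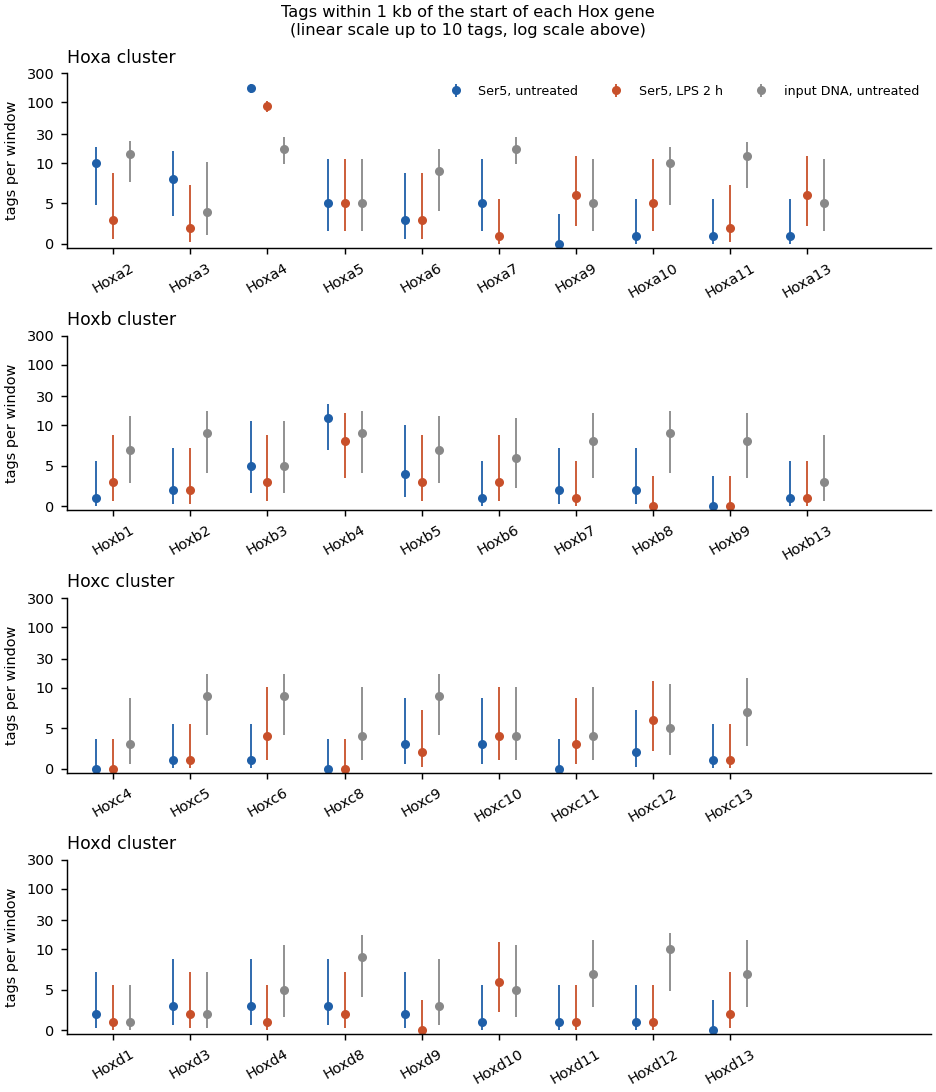
Tags within 1 kb of the start of each of the 38 Hox genes, by cluster, in the untreated Ser5 (blue), LPS Ser5 (orange) and input (grey) libraries. The vertical axis is linear up to 10 tags and logarithmic above, and bars are exact 95% Poisson intervals. Hoxa4 stands at 170 untreated tags, while every other member shown has at most 13.

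Of the called members, Hoxa3 and Hoxb4 rested on few tags. Hoxa3, a regulator of the pharyngeal region, had 8 untreated, 2 LPS and 4 input tags, and its untreated ratio of 3.78 had a lower limit of 1.01. Hoxb4, known for its use in blood progenitors, had 13, 8 and 9 tags, with a ratio of 2.73 (interval 1.08 to 7.24). Neither was called with scaling to all tags or with a window of 500 bp on each side, which left Hoxa4 as the called member in both libraries. Deposited peaks overlapped the promoter windows of 2 members in untreated cells (Hoxa4 and Hoxb4; background 47% of coding genes) and of 1 after LPS (Hoxa4; background 45%). They overlapped the transcripts of 3 members in untreated cells (Hoxa2, Hoxa4 and Hoxb4; background 51.3%) and of 2 after LPS (Hoxb4 and Hoxb7; background 48.4%).

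As counted above, all members called at the promoter belonged to paralog groups 1 to 4. These groups, gathered after the values had been seen, hold 11 of the 38 genes. Of these, 3 were called in untreated cells and 1 after LPS (background 50.2% and 49% of all coding genes). Among the 27 genes of groups 5 to 13 no promoter was called in either library. Their highest promoter window held 5 untreated tags and 6 LPS tags. With other settings Hoxc12 and Hoxb6 of these groups were called after LPS. Hoxc12 was called with tags moved 75 bp, and Hoxb6 from its most upstream annotated start. Groups 1 to 4 have members in Hoxc and Hoxd as well (Hoxc4, Hoxd1, Hoxd3 and Hoxd4), and none of these was called at the promoter.

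Hoxa4, of the same paralog group as Hoxb4, had 170 untreated, 87 LPS and 17 input tags at its promoter. This gave 18.9 times input in untreated cells (11.5 to 33.2) and 12.7 times after LPS (7.50 to 22.8). The signal lay mainly upstream, with 153, 83 and 12 tags in the 1 kb before the start and 17, 4 and 5 in the 1 kb after it. The peaks were chr6:52141561-52141780 and chr6:52141831-52142560 in untreated cells and chr6:52141829-52142720 after LPS. The 52141831 peak and the LPS peak overlapped an exon of 2700086A05Rik, a long non-coding gene on the opposite strand that RefSeq lists as Hoxaas3. The 52141561 peak overlapped an exon of Hoxa4. All of these peaks also lay within the annotated spans of 2700086A05Rik and of Hoxa3, which has a start 40690 bp upstream of the one used. The signal ended sharply: from 1 to 3 kb downstream there were 5, 0 and 9 tags, and from 1 to 3 kb upstream 10, 4 and 13.

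In the same cluster, Hoxa2 and Hoxa3 had weak Ser5 in their bodies in untreated cells. The body of Hoxa2, which patterns the hindbrain and the pharyngeal arches, held 28 untreated, 6 LPS and 14 input tags, and was 3.78 times input in untreated cells (1.93 to 7.78). A short untreated peak, chr6:52112926-52113122, lay in its coding sequence on 9 untreated, 0 LPS and 1 input tags. The Hoxa2 start in RefSeq is 582 bp further downstream, and around it there were 18, 2 and 11 tags, 3.10 times input in untreated cells (1.38 to 7.25), a ratio that would not pass with scaling to all tags. The body of Hoxa3 held 10, 0 and 4 tags, 4.73 times input in untreated cells (1.36 to 20.7). Neither body was called with scaling to all tags.

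**Figure D2:**
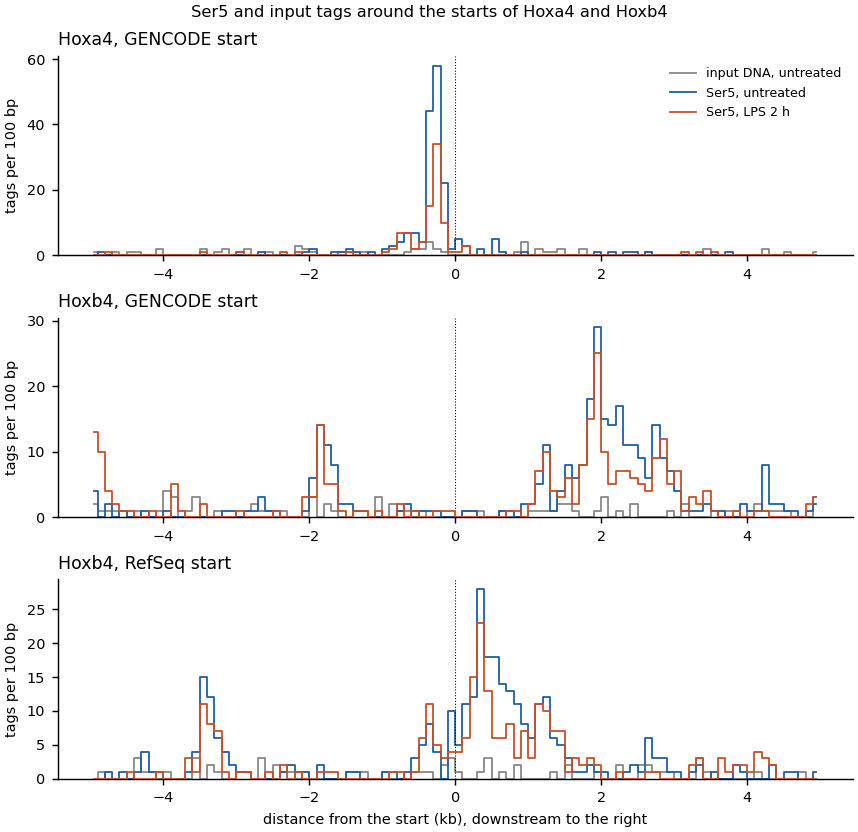
Tags per 100 bp from 5 kb upstream (left) to 5 kb downstream (right) of the starts of Hoxa4 and Hoxb4, the second around both its GENCODE and its RefSeq start, with untreated Ser5 in blue, LPS Ser5 in orange and input in grey. Ser5 of Hoxa4 lies within 1 kb upstream of the dotted start, and that of Hoxb4 lies 1 to 3 kb downstream of the GENCODE start, at the RefSeq start.

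Hoxb4 held 242 of the 539 untreated and 180 of the 466 LPS tags of the Hoxb cluster in its transcript, most of them away from its GENCODE start. Its body held 236 untreated, 178 LPS and 31 input tags, 14.4 times input in untreated cells (9.88 to 21.7) and 14.3 times after LPS (9.69 to 21.6). The start of Hoxb4 in RefSeq, placed in mm9 by an exact match of its promoter sequence, is 1583 bp downstream of the GENCODE start. Within 1 kb of the RefSeq start there were 173, 123 and 17 tags, 19.3 times input in untreated cells (11.7 to 33.8) and 18.0 times after LPS (10.8 to 31.8). Beyond 1 kb from it, to the end of the transcript, 67, 57 and 15 tags remained, 8.45 and 9.43 times input. The deposited peaks over the gene were chr11:96178904-96181094 (untreated) and chr11:96179007-96181095 (LPS). Both peaks end beyond the 1 kb limit, so part of the body count lies under them. Per 100 bp, the untreated library held 5 to 12 tags from 1000 to 1500 bp after the RefSeq start. Further on in the transcript it held at most 6. After LPS these were 3 to 11 and at most 3. Counted from the RefSeq start, Hoxb4 thus had Ser5 at its start and beyond 1 kb from it in both libraries. The body ratio with a later beginning was not tested.

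Gene bodies were called in 4 members in untreated cells (Hoxa2, Hoxa3, Hoxb4 and Hoxd3; background 40.1% of the 19285 coding genes with a body of at least 500 bp). After LPS the called bodies were those of 2 members (Hoxb4 and Hoxb7; background 36.8%). With scaling to all tags Hoxb4 alone was called in untreated cells, and Hoxb4 and Hoxb7 after LPS. Hoxd3 had 16 untreated, 3 LPS and 12 input tags over a body of 7281 bp, a ratio of 2.52 in untreated cells (1.12 to 5.84), and no deposited peak. Hoxb7 had 11, 20 and 11 tags, a ratio of 4.51 after LPS (2.06 to 10.4), with an LPS peak at chr11:96147161-96147377 in its annotated untranslated region.

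Hoxa4 was the member with Ser5 around its start and none above input beyond 1 kb. Most of these tags lay upstream of the start, where 2700086A05Rik and Hoxa3 are also annotated. Which gene this Ser5 belongs to was not tested. In untreated cells a promoter call without a body call was made for 1 member, Hoxa4 (background 19%), and a call of both for 2, Hoxa3 and Hoxb4 (background 36.6%), neither of which kept its promoter call with scaling to all tags. After LPS the first class again held 1 member, Hoxa4 (background 20.9%), and the second 0 (background 33.5%). Both classes were counted from the GENCODE starts, and from its RefSeq start Hoxb4 had both calls in each library. The Hoxa4 body, 1082 bp long, had 1 untreated, 0 LPS and 8 input tags. This depends on where the body begins: over the whole transcript from its start, Hoxa4 had 18, 4 and 13 tags, 2.62 times input in untreated cells (1.21 to 5.82), which would be called, and 17 of the 18 lay within the 1 kb after the start. The untreated density of tags in the body was 0.0109 of that in the promoter (0.000274 to 0.0614), against a median of 0.0951 over the 10718 coding genes called at the promoter, of which 98.9% had a higher value.

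**Figure D3:**
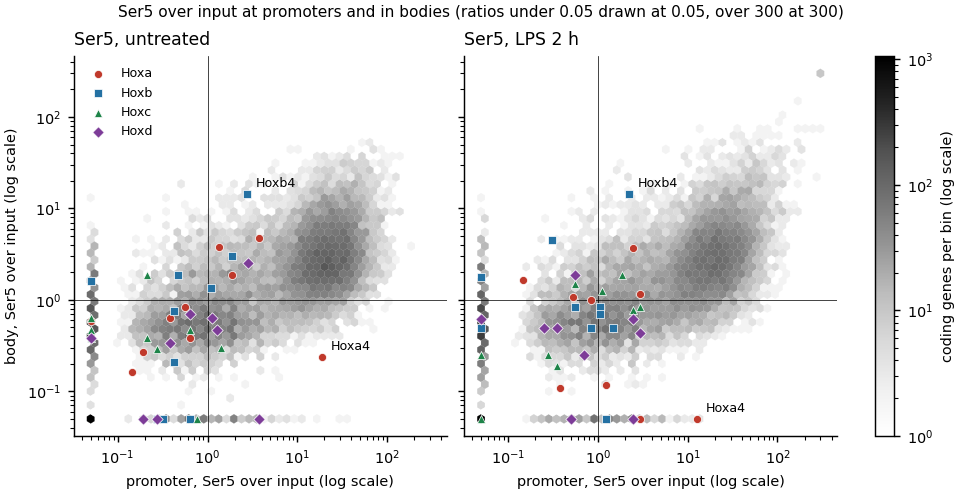
Ser5 over input in promoter windows (horizontal) and gene bodies (vertical), both on log axes, in untreated cells (left) and after LPS (right), with all coding genes as grey bins and the Hox genes as coloured symbols by cluster. Hoxa4 has a high promoter and a low body ratio (18.9 and 0.236 in untreated cells), and in the untreated panel most other members lie at or under 1 on both axes.

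Over whole clusters, from the first to the last base of the described members, Hoxa and Hoxb carried Ser5 above input, whereas Ser5 was not above input in Hoxc and Hoxd. Hoxa, taken from Hoxa2 to Hoxa13 (98525 bp), held 347 untreated, 220 LPS and 451 input tags, a ratio to input of 1.46 in untreated cells (1.26 to 1.68) and 1.21 after LPS (1.03 to 1.43). Hoxb (173941 bp) held 539, 466 and 587 tags, with ratios of 1.74 (1.54 to 1.96) and 1.97 (1.74 to 2.23). Hoxc (115741 bp) held 111, 123 and 342 tags, with ratios of 0.614 (0.491 to 0.763) and 0.893 (0.721 to 1.10). Hoxd (96834 bp) held 82, 86 and 308 tags, with ratios of 0.504 (0.390 to 0.645) and 0.693 (0.539 to 0.883). With scaling to all tags the ratios fall to 0.908 and 0.957 in Hoxb and to 0.761 and 0.588 in Hoxa.

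Outside their peaks Hoxa and Hoxb were not above input. The peaks were called from these same libraries, so taking them out lowers the ratio by construction. The untreated list had 3 peaks in this stretch of Hoxa and 2 in Hoxb, the LPS list 1 and 4, and neither list had a peak in Hoxc or Hoxd. Outside the peaks Hoxa had 177, 133 and 438 tags, a ratio of 0.765 in untreated cells (0.638 to 0.912), and Hoxb 275, 237 and 558 tags, a ratio of 0.932 (0.804 to 1.08). Per 1 kb the highest untreated bin held 147 tags in Hoxa and 139 in Hoxb, against 5 in Hoxc and 4 in Hoxd, where the highest input bins held 9 and 11. After LPS the highest bins of Hoxc and Hoxd held 5 and 10 tags. By the rule used for windows no bin of these clusters was enriched in untreated cells, and 1 of 116 in Hoxc and 2 of 97 in Hoxd were after LPS.

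**Figure D4:**
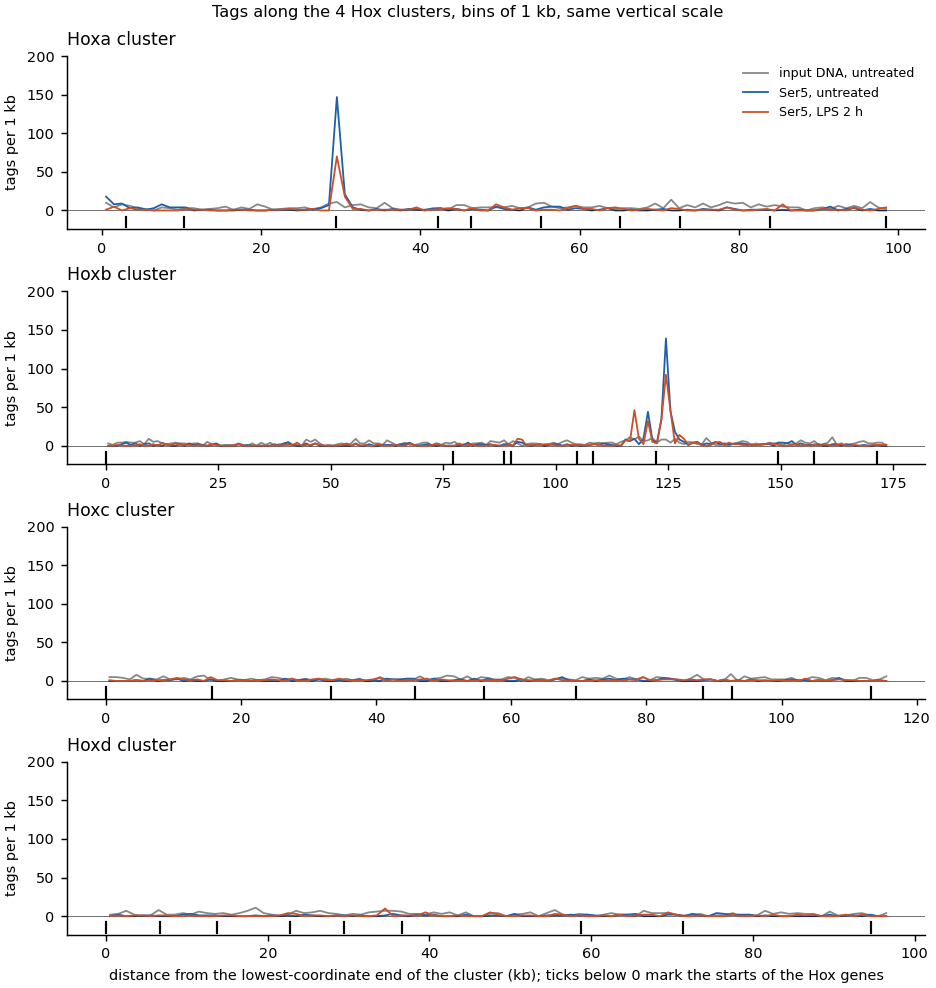
Tags in bins of 1 kb along the 4 Hox clusters, from the first to the last base of the described members, against the distance from the end of the cluster with the lowest coordinate, on the same vertical scale, with untreated Ser5 in blue, LPS Ser5 in orange, input in grey and the starts of the Hox genes as ticks. Ser5 stands above input at the start of Hoxa4 in Hoxa and around Hoxb4 in Hoxb, and reaches at most 5 tags per bin along Hoxc and 10 along Hoxd.

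The 35 Hox promoters without a call and without a peak summed to 71 untreated, 84 LPS and 243 input tags. Their ratio to input was 0.553 in untreated cells (0.418 to 0.723) and 0.858 after LPS (0.661 to 1.10). The 10557 coding genes without a call or a peak had ratios of 0.797 and 0.683, and the 960 of them with CpG-rich promoters 0.883 and 1.01. Here CpG-rich means an observed to expected CpG ratio of at least 0.6 and at least 55% GC. By cluster the unmarked Hox promoters had untreated ratios of 0.631 in Hoxa, 0.549 in Hoxb, 0.385 in Hoxc and 0.618 in Hoxd, and each of these intervals overlaps the others.

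Among the CpG-rich Hox promoters, Hoxa4 was the only one called in either library. CpG-rich promoters were 14 of the 38 Hox promoters and 20.1% of all coding genes, and 76.5% of the CpG-rich coding promoters were called in untreated cells. Hoxa4 had an observed to expected ratio of 0.867 and 63.2% GC. The other called members, Hoxa3 and Hoxb4, had ratios of 0.430 and 0.258 at their GENCODE starts and were not CpG-rich. The composition at the RefSeq start of Hoxb4 was not measured. Hoxd8, with 0.909 and 68.2% the most CpG-rich by both measures, had 3 untreated, 2 LPS and 9 input tags.

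The core of the PU.1 site of macrophages, GAGGAAGT, was searched on both strands of the promoter windows as a description. It was found in 12.3% of all coding promoters and in 4 of the 38 Hox promoters, Hoxa5, Hoxb1, Hoxc4 and Hoxd10. The sequence TGATTGAT, bound by Pbx and Hox proteins together, was found in 5.04% of all and in 3 Hox promoters, Hoxa2, Hoxb2 and Hoxd11. Sequence repeated elsewhere in the genome, which unique alignment leaves out, made up 1.12% of Hoxa, 6.30% of Hoxb, 2.04% of Hoxc and 1.87% of Hoxd at 30 bases, the shortest tag length, and at most 8.25% of a promoter window (Hoxc4).

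After LPS the Ser5 of the Hoxa4 start was lower and that around Hoxb4 was at its untreated level. With the rule of at least 10 tags over both Ser5 libraries, 5 members could be compared at the promoter. None was at least 2 times higher (background 6.78% of 12440 coding genes) and 2 were at least 2 times lower (background 11.7%), Hoxa2 from 10 to 3 tags and Hoxa3 from 8 to 2. Both rest on few tags, with ratios of 0.394 (0.0696 to 1.53) and 0.328 (0.0339 to 1.64). Around the RefSeq start of Hoxa2 there were 18 untreated and 2 LPS tags, a ratio of 0.146 (0.0164 to 0.609). The RefSeq start of Hoxa3 lies 40418 bp upstream, and there the direction was the opposite, with 3 untreated, 7 LPS and 6 input tags, 3.06 times higher after LPS (0.699 to 18.3), and 0.946 times input in untreated cells, no call. Hoxa4, with many tags, did not reach 2 times but had an interval under 1, at 0.671 (0.512 to 0.874). Hoxb4 had 0.807 (0.290 to 2.10) and Hoxa5, with 5 tags in each library, 1.31 (0.302 to 5.70). The median over all coding genes compared was 0.900.

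LPS was also set against untreated over whole clusters. In Hoxc and Hoxd neither library was above input. Low counts are compared there, with a median of at most 1 tag per bin of 1 kb. LPS over untreated was 1.45 in Hoxc (1.12 to 1.90) and 1.38 in Hoxd (1.00 to 1.89), 1.13 in Hoxb (1.00 to 1.29) and 0.832 in Hoxa (0.699 to 0.988). The intervals of Hoxb and Hoxd end close to 1 and hold it with scaling to all tags. With 1 tag per position and strand the ratio was 1.25 in Hoxd (0.891 to 1.75) and 1.49 in Hoxc (1.13 to 1.97). The untreated and LPS libraries differ in tag length, and its effect on these ratios was not tested. Over the 35 Hox promoters without a call and without a peak the ratio was 1.55 (1.12 to 2.16), against 0.857 over the coding genes without a call or a peak and 1.14 over the CpG-rich ones among them.

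In gene bodies 9 members could be compared, of which 3 were at least 2 times lower after LPS (Hoxa2, Hoxa3 and Hoxd3; background 10.2%) and 2 at least 2 times higher (Hoxb7 and Hoxc9; background 8.11%). The intervals excluded 1 for Hoxa2 (0.281, 0.0952 to 0.692), for Hoxd3 (0.246, 0.0459 to 0.859), for Hoxa3 (10 against 0 tags, upper limit 0.585) for Hoxb7 (2.39, 1.09 to 5.51) and for Hoxc9 (3.15, 1.03 to 11.4). The Hoxc9 body had 5 untreated and 12 LPS tags beside 20 input tags. Scaling to all tags would take the lower limit of Hoxc9 under 1. With 1 tag per position and strand its body held 5 untreated and 9 LPS tags. The Hoxb4 body stayed at 0.990 (0.810 to 1.21).

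A peak found in the LPS list alone lay between genes. This peak, chr11:96172890-96173368, is centred 4869 bp upstream of the GENCODE start of Hoxb4 and overlaps no annotated gene. It held 8 untreated, 36 LPS and 5 input tags. Ser5 there was 5.90 times higher after LPS than before (2.70 to 14.7) and 17.9 times input (6.99 to 58.4). The untreated list has no peak there, and the site is described because it was called in the LPS library and rose most, so both ratios are biased upwards by that choice and are given as a description. The neighbouring untreated peak at chr11:96176016-96176419, 1781 bp upstream of the same start, also overlaps no annotated gene. An LPS peak, chr11:96175979-96176369, overlaps it. The untreated peak held 40, 27 and 6 tags, a ratio of 0.886 (0.523 to 1.48). The untreated peak over the gene held 211, 159 and 17, a ratio of 0.989 (0.800 to 1.22). Genes that LPS induces in macrophages served as a check of the labels: all 6 of the fixed list (Tnf, Nfkbia, Cxcl10, Ccl5, Il6 and Il1b) were at least 2 times higher at the promoter.

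**Figure D5:**
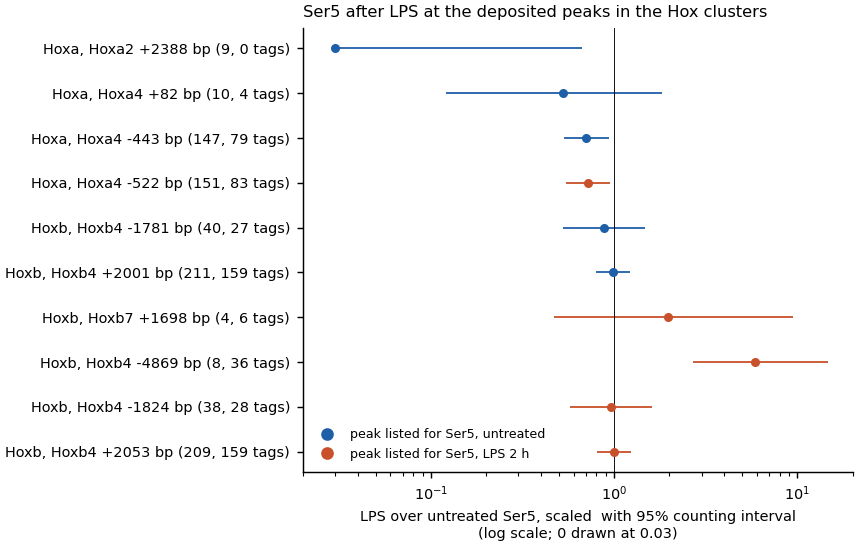
LPS over untreated Ser5 on a log axis, with exact 95% counting intervals, at the 3 untreated (blue) and 1 LPS (orange) peaks in the stretch of Hoxa and the 2 untreated and 4 LPS peaks of Hoxb, each named by its distance from the GENCODE start of the nearest Hox gene and with its untreated and LPS tags. The Hoxa peaks lie below 1, the peaks around Hoxb4 near 1, and the peak 4869 bp upstream of Hoxb4 at 5.90. The Hoxa peaks centred 443 and 522 bp upstream of Hoxa4 overlap and are 1 site. The interval of the Hoxa peak with 10 untreated and 4 LPS tags holds 1 (0.120 to 1.82). Each peak was selected in the library that lists it, which biases its ratio towards that library.

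Most other genes inside and next to the clusters had no Ser5 above input either. Of 25 annotated non-coding genes described within the clusters, 1 overlapped a peak, 2700086A05Rik (218 untreated, 136 LPS and 159 input tags over the whole gene). Gm15053, listed by RefSeq as Hottip, had 7, 7 and 16 tags. Of 11 coding genes within 100 kb of a cluster, 2 were called in both libraries (background 50.2% and 49% of coding genes), and both flank Hoxd. Lnp had 190, 164 and 16 promoter tags and Mtx2 88, 47 and 10. The homeobox genes Evx1 and Evx2, which end the Hoxa and Hoxd clusters, had 1, 0 and 7 and 3, 3 and 5 tags.

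Among 98 homeobox genes outside the clusters, 7 promoters were called in untreated cells and 7 after LPS, against 50.2% and 49% of all coding genes. In each list 2 overlapped a peak (background 47% and 45%). The median ratios to input of these 98 genes, 0.670 and 0.993, compare with 0.447 and 0.827 for the Hox promoters. Of the genes for the partner proteins with which Hox factors bind DNA, 5 of 9 promoters were called in untreated cells and 6 after LPS. These are 55.6% and 66.7%, against the same 50.2% and 49%. Pknox1 had 237 untreated, 147 LPS and 13 input tags, and Meis1 118, 46 and 18. Meis2 had 7, 0 and 12.

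Most genes that encode repressors and activators of Hox transcription carried Ser5. Of 33 Polycomb genes 30 were called in each library, with median ratios to input of 20.7 and 17.4. Over all coding genes 50.2% and 49% were called, and the called promoters had median ratios of 19.2 and 17.4. Ring1, a subunit of the complex that ubiquitinates histone H2A, had 181 untreated, 115 LPS and 6 input tags. Eed, a subunit of the complex that methylates H3K27, had 525, 288 and 24. Of 17 Trithorax-group genes, which counter Polycomb, 17 were called in untreated cells and 16 after LPS, among them Mll1 with 384, 257 and 17 tags.

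The cells had the Ser5 pattern of macrophages. All 9 macrophage markers measured were called in untreated cells and 8 after LPS, and all 10 macrophage transcription factors in both. Over all coding genes 50.2% were called in untreated cells and 49% after LPS. Of markers of other cells, 1 of 8 progenitor genes was called in untreated cells and 2 after LPS, 1 of 8 neutrophil genes in each library, 2 of 6 B cell genes and 0 after LPS, and no promoter of 8 fibroblast or 7 T cell genes. In gene bodies 2 of the T cell genes were called in both libraries (background 40.1% and 36.8% of coding genes). The B cell genes had 2 called bodies in untreated cells and 1 after LPS, the neutrophil genes 0 and 2. No body of the progenitor or fibroblast genes was called. Among the B cell genes, the Cd79a body was 3.65 times input in untreated cells and 4.26 times after LPS. The body of Lck, a kinase of T cell receptor signalling, was 17.6 times input in untreated cells and 20.5 times after LPS, and that of Cd3d, a subunit of the receptor complex, 10.2 and 7.45 times. How far other cells in the culture contribute to the Ser5 of Hoxa4 and Hoxb4 was not tested. In bulk samples a few cells with much Pol_II at a gene and many cells with little cannot be told apart.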

How the data were processed

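Per the deposited files and the methods, the authors trimmed the reads, placed them on the mm9 assembly by unique Bowtie alignments and called peaks with MACS for each Ser5 library against the input. Tool versions were not given in the sources used here. The tag files hold positions and strands, with duplicates kept and no unit. The score in the authors' peak lists is minus 10 times log10 of the peak p-value and was used only to select peaks.

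The members and the gene lists were chosen with earlier results of these data known. Tags were counted with Python 3.11.15 and numpy 2.4.6, and intervals computed with scipy 1.17.1: exact Poisson limits for single counts, and for a ratio the exact binomial limits given the total of both counts. An input of 0 tags was set to 3 for a ratio. The representative transcript was the coding one with the longest coding sequence. Functions were tested on simulated data. Named were members with a peak or call, those with the highest and lowest ratios of LPS to untreated, flanking coding genes within 100 kb and non-coding genes with a peak, and others were chosen after their values were seen. Some items, 1 member among them, are not reported here, and the Hoxa cluster was taken from Hoxa2 on. RefSeq promoter sequences covered 22 of the 38 members described and were placed in mm9 by exact matches. The untreated, LPS and input libraries differ in tag length (45, 30 and 36 bases). Alternatives were other scalings, windows, starts and thresholds.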

Additional observations from a re-analysis of the deposited data

How the results depend on the processing

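No paired analysis was possible because each condition had 1 library. Scaling to all tags gave 1 enriched promoter and 1 enriched body in untreated cells, and cluster ratios to input (untreated, LPS) of 0.761 and 0.588 in Hoxa, 0.908 and 0.957 in Hoxb, 0.321 and 0.434 in Hoxc and 0.263 and 0.337 in Hoxd; these shifts follow from the scaling itself. Windows of 500 bp gave 1 enriched promoter and 1 with a peak in untreated cells and 0 lower after LPS. With tags moved 75 bp, 2 promoters were enriched after LPS (Hoxa4 and Hoxc12). From the most upstream annotated starts 3 promoters were enriched after LPS (Hoxa4, Hoxb3 and Hoxb6), 2 were higher after LPS and 1 lower. Without a minimum of tags 9 were higher and 4 lower, with at least 20 tags 0 were lower, and with 1 tag per position and strand 1 was lower. With peaks of p at most 1e-10, 1 transcript held a peak in untreated cells and 1 after LPS. The following were added after the data were seen. Outside the peaks the ratios were 0.765 and 0.754 in Hoxa and 0.932 and 1.05 in Hoxb, since the peaks had been removed. Without Hoxb13 the Hoxb ratios were 2.41 and 2.78. From the RefSeq starts 1 promoter, Hoxb4, was enriched after LPS. Of the 153 values under an alternative, 118 stayed within their interval or within 1.5 times the count. With 1 library per condition, differences between cultures cannot be told apart from effects of LPS, and counts of a few tags per window limit what could be called.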

Other observations

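Among the 98 homeobox genes outside the Hox clusters, Lhx2 had the most untreated promoter tags, with 26 untreated, 32 LPS and 8 input tags, while Nkx6-2 had 12, 5 and 2 and Barhl1 17, 3 and 7. These genes were chosen after their values were seen.

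At annotated starts other than the representative ones, the window of the Hoxb3 start 20443 bp upstream held 7 untreated, 10 LPS and 7 input tags, and that of the Hoxb6 start 6479 bp upstream 1, 5 and 2.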
